A study of Mus musculus with 2 samples.

Results

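The genes of the insulin-like growth factor (IGF) system examined here were the ligand Igf1, the receptors Igf1r and Igf2r, and the binding proteins Igfbp1 to Igfbp7. They were chosen by name: every non-control spot whose deposited gene name equals 1 of these 10 symbols was taken. These 10 genes, of 27670 named genes on the array, had 16 probes and 25 spots per array, and 6 of the 10 were bright enough to be tested, of 15267 tested genes in all. The cells were GIF-5, a single mouse gastric epithelial line whose genotype the labels give as Runx3-/-p53-/-, so both fractions compared carry the same loss of Runx3 and p53. They were grown in DMEM with bovine serum and detached with trypsin and EDTA. The suspension was sorted by flow cytometry, with a phycoerythrin-labelled antibody to CD133, into CD133-positive and CD133-negative cells. On each of 2 Agilent arrays the CD133-positive RNA was in Cy3 and the CD133-negative RNA in Cy5. The dyes were not swapped, so a dye effect on a gene and a difference between the fractions cannot be told apart. The arrays are labelled biological replicates, with no word on separate cultures or sorts, so p-values measure only the spread between these 2 arrays, which may be technical.

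IGF1 and IGF2 are secreted peptides that bind the receptor tyrosine kinase IGF1R at the cell surface, which signals through insulin receptor substrates to PI3K and Akt and promotes growth and survival. IGF2R has no kinase domain; it takes up IGF2 for degradation and also carries enzymes tagged with mannose 6-phosphate to the lysosome. The secreted IGF-binding proteins hold the ligands away from the receptor or deliver them, are cut by proteases that release the ligand, and in part bind matrix or the cell surface without any ligand.

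Promoter sequences are shown for Igfbp5, the binding protein that differed between the fractions, and for Igfbp2, the gene next to it on chromosome 1, which lies on the opposite strand and whose probe was not well above background on both arrays in either fraction. The windows hold the 250 bases before the RefSeq gene start in GRCm38.p6, written 5′ to 3′ on the strand of the gene. They cover chr1:72874866-72875115 on the minus strand for Igfbp5 and chr1:72824230-72824479 on the plus strand, the first of 2 RefSeq windows, for Igfbp2. Capitals mark matches on either strand to the motifs searched, which are spelled out after the sequences.
Igfbp5: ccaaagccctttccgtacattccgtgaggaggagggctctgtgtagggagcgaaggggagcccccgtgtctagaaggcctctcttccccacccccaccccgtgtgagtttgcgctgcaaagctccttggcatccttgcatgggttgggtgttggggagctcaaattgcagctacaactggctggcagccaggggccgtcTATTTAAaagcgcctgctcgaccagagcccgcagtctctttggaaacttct
Igfbp2: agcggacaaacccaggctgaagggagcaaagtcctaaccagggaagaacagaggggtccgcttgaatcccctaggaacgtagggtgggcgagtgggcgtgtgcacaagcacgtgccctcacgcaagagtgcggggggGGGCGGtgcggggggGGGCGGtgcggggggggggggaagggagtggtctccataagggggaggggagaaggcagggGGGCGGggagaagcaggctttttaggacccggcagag
Promoter windows were found for 10 of 10 genes. TATTTAA, an A/T-rich string of the TATA box kind, occurred in the window of Igfbp5 alone among these genes, at position -51 from the gene start, and in 4.18% of all 32851 RefSeq windows of that length. GGGCGG, the core of the GC box, occurred in the windows of Igf1r, Igf2r, Igfbp2 and Igfbp7 and in 32.7% of all windows, and it was found 3 times in the Igfbp2 sequence above. TATAAA was found for Igfbp4 and Igfbp6, and in 12.4% of all windows. The G and C content was 58.8% for Igfbp5 and 67.2% for this Igfbp2 window. These are matches of letters only. Other A/T-rich strings were not searched, such as tatatat, which lies in the Igfbp3 window.

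Among the IGF genes, the transcript of Igfbp5 was higher in CD133-positive cells, by 9.89-fold against the lowest signal that counts as well above background. Its signal in CD133-negative cells was at background, so this fold is not a firm lower bound. The other tested genes, Igf1r, Igf2r, Igfbp3, Igfbp6 and Igfbp7, did not pass the test. No probe for Igf1, Igfbp1, Igfbp2 or Igfbp4 was well above background on both arrays in either fraction, so no difference was tested for these. Levels below are normalised log2 intensities of a probe, and a ratio is the log2 value in CD133-positive cells minus that in CD133-negative cells. The mean of both arrays is followed by its moderated standard error (n = 2 throughout), and p-values are those of limma, adjusted by the Benjamini-Hochberg method over all tested genes with a threshold of 0.05. A level is never set against that of another probe, since brightness also depends on the probe.

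**Figure D1:**
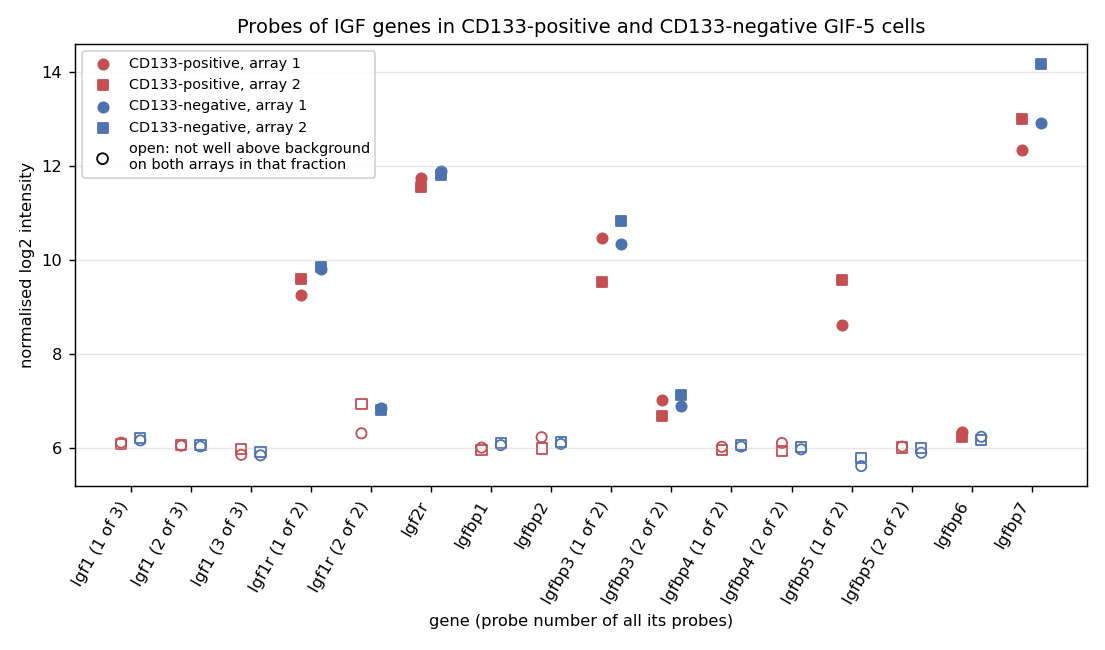
Normalised log2 intensity (y axis) of each of the 16 probes for IGF genes (x axis) in CD133-positive (red) and CD133-negative (blue) cells on array 1 (circles) and array 2 (squares); open symbols stand for a fraction in which the probe was not well above background on both arrays. The fractions are far apart at 1 of the 2 Igfbp5 probes, at 8.62 and 9.58 against 5.63 and 5.80, and at Igfbp7 the CD133-positive value is the lower of the pair on each array.

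The ligand Igf1, a growth factor made by liver and by many stromal cells, was near the limit of detection. It had 3 probes, and the 1 printed 10 times on each array was not well above background in any of its spots in either fraction. The ratios of those spots spanned -0.11 to 0.11 on array 1. On array 2 they spanned -0.19 to 0.06. Another Igf1 probe passed background on 1 of 2 arrays, in the negative fraction, and the last on none. Of the other ligands, neither Igf2 nor Ins1 had a probe well above background, and Ins2, like Igf1, was well above it only in CD133-negative cells and not on both arrays. Igf1, Igf2, Ins1 and Ins2 were therefore not detectable at this signal or only barely so, which does not show that the cells lack them.

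Igf1r, the receptor that carries the growth signal, had levels of 9.26 and 9.61 in CD133-positive cells and of 9.82 and 9.85 in CD133-negative cells. The positive fraction was lower on both arrays, and the values of the fractions did not overlap. The ratios were -0.56 and -0.24, with a mean of -0.40 ± 0.16, which did not pass the test (limma adjusted p = 0.207; 95% interval -0.84 to 0.05). A second, dimmer Igf1r probe gave -0.55 and 0.12, so its arrays differed in sign. Another 2 probes, which carry clone names in the files but whose accessions lead to Igf1r in RefSeq, gave -0.83 and -0.17, and -0.48 and -0.28. All 4 probes thus had a mean below 0.

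Igf2r, the scavenger of IGF2, had levels of 11.75 and 11.55 in CD133-positive cells and of 11.90 and 11.81 in CD133-negative cells. Again the positive values were the lower ones on both arrays and did not overlap the negative ones, but the gap was small. The ratios were -0.15 and -0.26, with a mean of -0.21 ± 0.14 (limma adjusted p = 0.409; 95% interval -0.60 to 0.18). The interval leaves room for a difference in either direction.

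Igfbp5, a binding protein that is secreted and attaches to extracellular matrix, had levels of 8.62 and 9.58 in CD133-positive cells and of 5.63 and 5.80 in CD133-negative cells at the probe that was tested. Both positive values lay above both negative values, and the negative ones were not well above background on either array. In the raw scans the positive spots read 283.7 and 528.2 over local backgrounds of 47 and 50, and the negative spots 62.33 and 68.21 over 52 and 51. The ratios were 2.99 and 3.78, with a mean of 3.38 ± 0.24 (limma adjusted p = 0.0255). The probe entered the test through the CD133-positive fraction alone, so the mean depends on a signal at background and its size is not firm. Measured against the lowest signal that counts as well above background, Igfbp5 was higher by 3.31 in log2 terms. That value is not a firm lower bound, since the ratio of array 1 was 2.99. CD133 itself, the product of Prom1, was measured at 3.78 ± 0.14, and at 3.58 against that lowest signal. It was the sorted marker and so checks the labels only.

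The second Igfbp5 probe did not show this difference. Its levels were 6.04 and 6.02 in CD133-positive cells and 5.91 and 6.01 in CD133-negative cells, and it was not well above background in either fraction on either array. Both probes are named for Igfbp5 in the files, through the same transcript accession. The tested probe lies at 73100116 to 73100175 on the minus strand of chromosome 1 and the other at 73102653 to 73102712, in a genome build not given in the sources used here, so the tested one is nearer the 3′ end of the gene. The difference in Igfbp5 therefore rests on 1 probe. Whether the other probe detects the transcript was not tested.

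The call for Igfbp5 also depends on the filter and on the variance model. With every probe tested, however dim, its adjusted p by limma was 0.104, and without moderation of the variance it was 0.513. Where a probe had to be well above background in both fractions, it was not tested at all. Under the other 8 settings tried, its limma adjusted p lay between 0.0064 and 0.0356. Each of these kept the filter that Igfbp5 passed through CD133-positive cells alone, so they do not bear on that dependence. The size moved with the background correction and the normalisation. It was 4.40 with a smaller normexp offset of 16 and 7.19 from the deposited processed signals, against 3.38. With each array centred on the median of its probes in place of loess it was 2.90, and on array 1 alone 2.99.

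**Figure D2:**
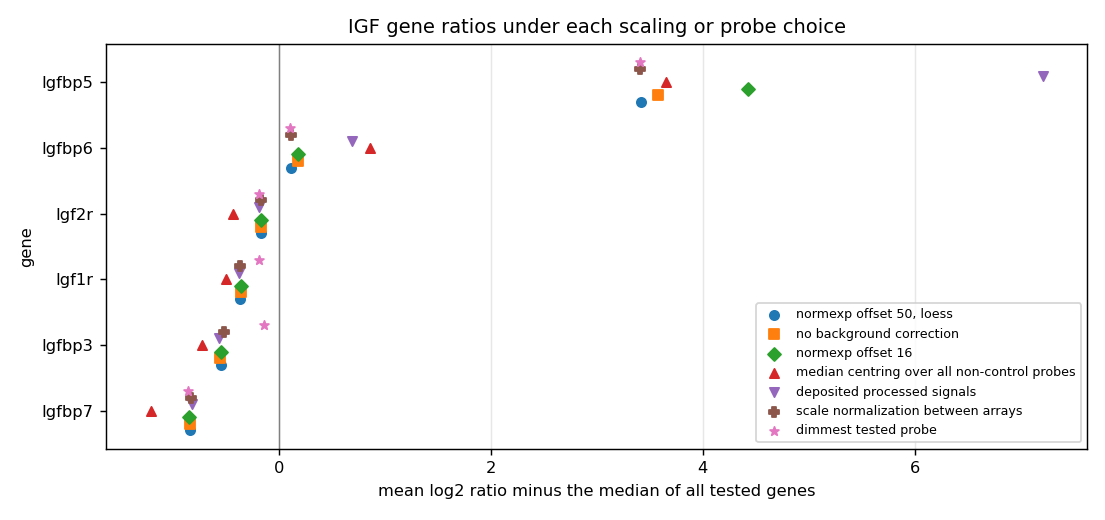
Mean log2 ratio, less the median of all tested genes under the same setting (x axis), for the 6 tested IGF genes (y axis), each symbol being 1 choice of background correction, normalisation or probe. Igfbp5 lies above 3 under every choice shown and reaches furthest with the deposited processed signals; Igf1r, Igf2r, Igfbp3 and Igfbp7 lie below 0 under every choice shown.

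Igfbp7, a more distant binding protein of low affinity for IGFs that is found in basement membranes, had levels of 12.35 and 13.00 in CD133-positive cells and of 12.93 and 14.17 in CD133-negative cells. On each array the positive value was the lower, although the fractions overlapped across arrays. The ratios were -0.58 and -1.17, with a mean of -0.88 ± 0.20, and Igfbp7 did not pass the test (limma adjusted p = 0.105). It stood at the 6.17th percentile of tested genes.

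Igfbp3, the main carrier of IGFs in blood serum, was the gene on which the arrays disagreed. Its levels were 10.48 and 9.55 in CD133-positive cells and 10.36 and 10.84 in CD133-negative cells. The ratio was 0.13 on array 1 and -1.29 on array 2, with a mean of -0.58 ± 0.39 (limma adjusted p = 0.402). A second Igfbp3 probe gave 0.14 and -0.46, so both probes differed in sign between the arrays. No direction can be given for Igfbp3.

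Igfbp6, which prefers IGF2 over IGF1, was close to background. Its levels were 6.34 and 6.24 in CD133-positive cells and 6.25 and 6.17 in CD133-negative cells, where it was well above background on 1 of 2 arrays. The ratios were 0.10 and 0.07, with a mean of 0.08 ± 0.14 (limma adjusted p = 0.758; 95% interval -0.30 to 0.46).

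Of the remaining binding proteins, Igfbp1, a liver product under insulin control, and Igfbp4, which holds IGFs until it is cut by the protease PAPP-A, had 1 and 2 probes, none of them well above background in either fraction. Igfbp2, which carries an integrin-binding motif, had 1 probe that was well above background on 1 of 2 arrays in each fraction. Its ratios were 0.14 and -0.13. A difference in these genes was not detectable at this signal.

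Counted together, 1 of 6 tested IGF genes passed the threshold, in the direction of higher expression, and none passed in the other. Among all tested genes 1.65% were called, 1.38% as higher and 0.269% as lower in CD133-positive cells. The same gene was the only 1 of the 6 with at least a 2-fold difference in the same direction on both arrays, against 4.62% of all tested genes. On both arrays, 2 of the 6 lay above 0 (Igfbp5 and Igfbp6) and 3 below (Igf1r, Igf2r and Igfbp7). With 6 genes, and with Igfbp5 tested only through the fraction in which it was high, these counts are no more than a description. Centring each array on the median of its probes in place of loess moved the median of all tested genes from -0.03 to -0.74 and the share of called genes that were higher from 83.7% to 4.79%. Under that centring 5 of the 6 passed, Igfbp5 higher and Igf1r, Igf2r, Igfbp3 and Igfbp7 lower, but of all tested genes 66.2% were then called, and 63% called as lower. Relative to the shifted median, Igfbp7 was then at -1.21 and Igfbp5 at 3.65.

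**Figure D3:**
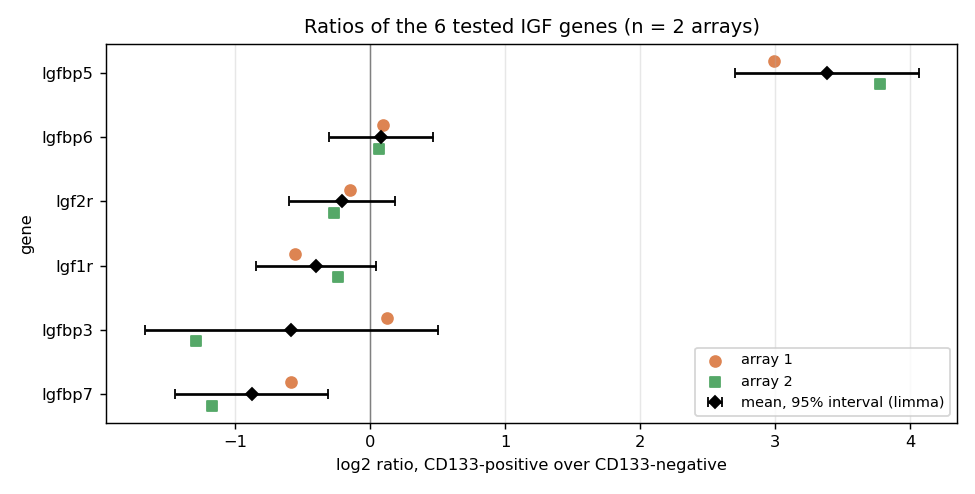
Log2 ratio of CD133-positive over CD133-negative cells (x axis) for the 6 tested IGF genes (y axis), with the value on array 1 (circles), on array 2 (squares) and the mean with its 95% interval from limma (diamonds and bars; n = 2). The interval of Igfbp5 runs from 2.70 to 4.06 and is the only one whose gene passed the threshold. Igfbp5 entered the test through CD133-positive cells alone, so its ratio and interval rest on a CD133-negative signal at background. For Igfbp3 the arrays lie on opposite sides of 0.

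The wider IGF pathway was read from lists of genes by function. Of 5 receptors for IGF, insulin and growth hormone, 4 were tested and none passed; their median ratio was -0.16, against -0.03 for all tested genes. Ghr, the growth hormone receptor, was at 0.59 ± 0.21 (0.28 and 0.90; limma adjusted p = 0.178).

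Stc2 was the only gene of these pathway lists that passed. Stanniocalcin 2 is a secreted inhibitor of the protease PAPP-A, which cuts IGF-binding proteins. Stc2 rose by 3.32 and 3.45, with a mean of 3.39 ± 0.14 (limma adjusted p = 0.0119), and was well above background in both fractions on both arrays. Its call was kept under 9 of 10 other settings and lost without moderation (limma adjusted p = 0.482). Of the 10 genes for the complex partner of the binding proteins, their proteases and the inhibitors of these, 5 were tested and their median ratio was -0.39. Pappa and Pappa2, which encode PAPP-A and a related protease, had no probe well above background, nor had Stc1. Htra1, a secreted serine protease, was at -1.34 ± 0.26 (limma adjusted p = 0.0865), and Adam9, a membrane protease, at -0.74 ± 0.20 (limma adjusted p = 0.126).

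Proteins that share the amino-terminal domain of the IGF-binding proteins, such as the CCN family of matrix proteins, lay lower in CD133-positive cells without passing the test. All 8 tested genes of the 12 listed lay below 0 on both arrays, with a median of -1.19 (-0.75 on array 1 and -1.53 on array 2), against -0.03 for all tested genes. How many of all tested genes lay below 0 on both arrays was not counted, here or for the other lists, so such counts are no more than a description. All 8 also lay below the median of all tested genes on both arrays. With the dimmest tested probe, or under median centring, 7 did. Of the 8, Ccn5 was tested only through the CD133-negative fraction, at -0.34; with both fractions required to be well above background, 7 genes were left and their median was -1.34. Ccn4, a target of Wnt signalling, was at -2.39 ± 0.38 (-1.70 and -3.09; limma adjusted p = 0.0757). Kazald1, a secreted protein with a Kazal domain, was at -2.02 ± 0.73 (-0.60 and -3.44; limma adjusted p = 0.185). Htra1 and Htra3 belong to this list and to that of the proteases. The count depends on the setting: 7 of 8 fell under median centring, where the median of all genes was itself lower and 63% of all tested genes fell. With an intensity trend in the variance 2 fell, against 2.14% of all tested genes, and with the deposited processed signals 1 fell, against 0.616%.

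**Figure D4:**
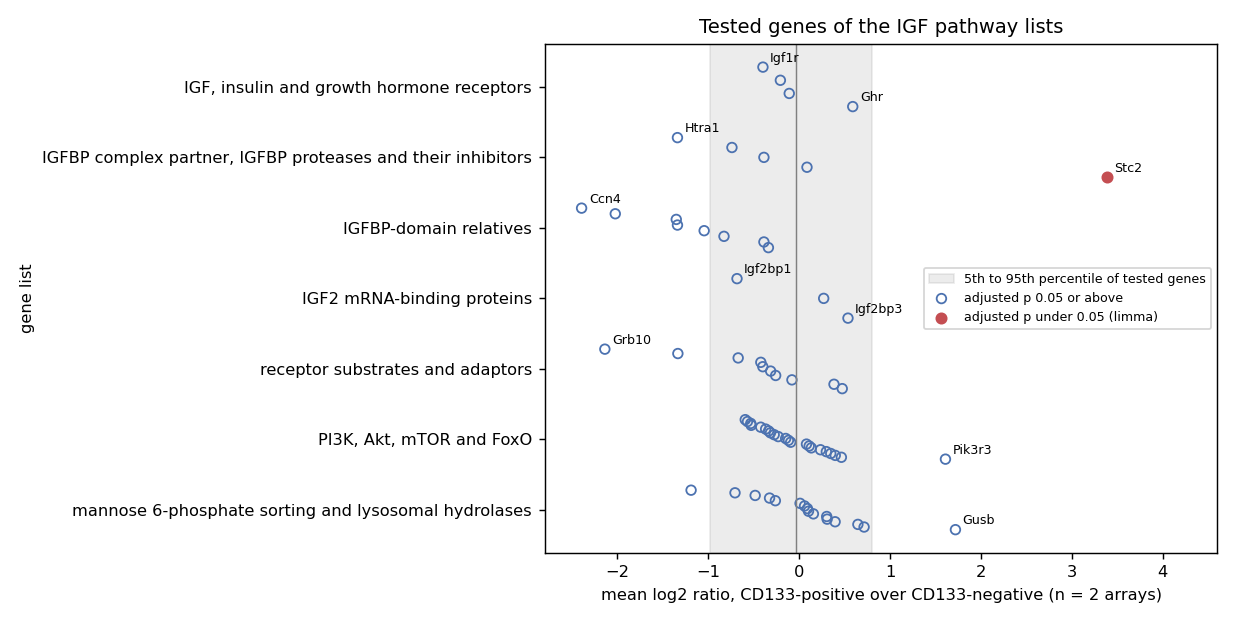
Mean log2 ratio of CD133-positive over CD133-negative cells (x axis, n = 2) for the tested genes of 7 lists of the IGF pathway (y axis), 1 circle per gene, with some genes of the text named and a grey band from the 5th to the 95th percentile of all tested genes. Stc2, at 3.39, is the only gene plotted with an adjusted p under 0.05, and the 8 IGFBP-domain relatives all lie below 0.

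Downstream of the receptor, none of the tested genes passed. Of 12 substrates and adaptors 10 were tested, with a median of -0.36; 7 lay below 0 on both arrays and 2 above. Grb10 and Grb14, adaptors that dampen insulin and IGF receptor signalling, were at -2.14 ± 0.45 (-1.30 and -2.98; limma adjusted p = 0.094) and -1.33 ± 0.25 (limma adjusted p = 0.0834). Among 24 genes of the PI3K, Akt, mTOR and FoxO branch, 22 were tested and their median was -0.13. Pik3r3, a regulatory subunit of PI3K, was at 1.61 ± 0.27 (1.14 and 2.07; limma adjusted p = 0.0808). Under median centring all 10 tested substrates and adaptors and 18 of the 22 genes of the PI3K branch fell, beside the 63% of all tested genes that did. With an intensity trend 1 gene of the PI3K branch rose, beside 3.24% of all tested genes.

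The lists that bear on IGF2 and on the second role of IGF2R showed no called gene either. The 3 IGF2 mRNA-binding proteins had a median of 0.27, with Igf2bp1 at -0.68 ± 0.14 (limma adjusted p = 0.0902) and Igf2bp3 at 0.54 ± 0.20 (limma adjusted p = 0.187). All 16 genes for mannose 6-phosphate sorting and the lysosomal hydrolases were tested, with a median of 0.10. Gusb, the lysosomal beta-glucuronidase, was at 1.72 ± 0.23 (2.09 and 1.34; limma adjusted p = 0.0663). Under median centring 12 of these 16 genes fell and 1 rose, while 63% of all tested genes fell and 3.17% rose. With an offset of 16, 1 of the 16 rose, beside 2.61% of all tested genes. With the dimmest tested probe 1 rose, beside 0.943%. With an intensity trend 1 rose and another fell, beside 3.24% and 2.14%. Median centring also made 2 of the 3 mRNA-binding proteins and 3 of the 4 tested receptors fall, beside the same 63%.

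The genes beside Igfbp5 on chromosome 1, in the RefSeq order and looked up after its value was known, were tested in 3 of 6 cases, and none of these 3 passed. Rpl37a, a ribosomal protein gene, was at -0.68 ± 0.14 (limma adjusted p = 0.0893), Tnp1, a sperm nuclear protein gene, at -0.01 ± 0.14 and Tns1, a focal adhesion gene, at -2.27 ± 0.39 (limma adjusted p = 0.082). Ankar and Igfbp2 were too dim to test, and no probe was named for Rufy4.

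Markers of other cells were read beside Igfbp5, which many stromal cells make. In a bulk sample, fewer cells of a type and less RNA per cell cannot be told apart. Of 12 fibroblast and muscle markers 4 were tested and none passed, with ratios from -1.25 to 0.27 and a median of 0.11. With an offset of 16, scaling between arrays or an intensity trend 1 fell, beside 0.983%, 1.31% and 2.14% of all tested genes. Under median centring 2 fell, beside 63%. Dcn, Lum, Pdgfra, Pdgfrb, Thy1 and Postn had no probe well above background. The summed intensity of the list was 9093 and 9781 in CD133-positive and 8325 and 9308 in CD133-negative cells. Of 8 endothelial markers 3 were tested and 2 were called higher, beside 1.38% of all tested genes. Vwf rose by 3.75 ± 0.15 (limma adjusted p = 0.0119). Cdh5 was at 2.61 ± 0.25 (limma adjusted p = 0.0431), and at 2.54 against the lowest signal that counts as well above background. Its CD133-negative signal was not well above background, so Cdh5 entered the test through the CD133-positive fraction alone. The third tested marker, Esam, was at -1.07 ± 0.22 (-0.74 and -1.40; limma adjusted p = 0.0903), and Pecam1, Kdr, Tek, Tie1 and Emcn had no probe well above background. The sum of that list was 2152 and 2888 in CD133-positive and 696.5 and 781.4 in CD133-negative cells, so the sum was higher in the same fraction as Igfbp5; its part in the result was not tested. Without a filter on dim probes neither Vwf nor Cdh5 was called (limma adjusted p = 0.0525 and 0.113), and with its dimmest tested probe Cdh5 was at 1.23. Of 9 blood cell markers 5 were tested, none passed, and Ptprc, Adgre1 and Itgam were at background; the sum was 713.2 and 623.1 against 766.3 and 686.2. Of 8 gastric epithelial markers 7 were tested. Tff1 rose by 4.40 ± 0.15 and Muc1 by 1.78 ± 0.15, again beside 1.38% of all tested genes called higher. Krt8, Krt18 and Krt19 were lower on both arrays without passing the test, at -0.78, -0.54 and -0.79. Cdh1 and Cldn18 were higher on both arrays without passing it, at 0.42 and 0.79. Like Esam, the genes that did not pass were named after their values were seen. The median ratio of the list was 0.42. The sum of the list was 266100 and 209200 against 324200 and 333300; Epcam was not well above background on both arrays in either fraction.

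Over the whole array, 252 of 15267 tested genes were called, and the ratio of a gene differed between the arrays by a median SD of 0.18. The ratios spread more widely on array 2, with an SD of 0.76 against 0.60 on array 1. Both arrays lay on 1 slide and share a scan time, so no batch could be compared.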

How the data were processed

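RNA of both fractions was compared on 2 two-colour arrays. The deposited scanner files give each spot's mean and local background intensity, read by Agilent Feature Extraction 9.5.3.1, and processed signals, an intensity that this program corrected for background and dye, per the file headers. A log10 ratio is also deposited, red over green and so CD133-negative over CD133-positive; it equalled the deposited value table at all 45018 spots of each array and was not used further. No spot was saturated.

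From the intensity values, ratios were computed with limma 3.58.1 in R 4.3.3: normexp background correction with an offset of 50, loess within each array, control spots at weight 0, repeated spots averaged. A probe was tested if well above background on both arrays in at least 1 fraction (23173 of 41174), and the brightest tested probe stood for its gene. Each array was 1 replicate; the fit (mean log2 ratio, empirical Bayes, two-sided) had 1 residual degree of freedom. The number of arrays limits the precision. Probes were named by RefSeq accession (22951), by symbol or synonym (9768) or kept their name (8455). The fit was tested on simulated data.

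The IGF genes and all lists were chosen with earlier results of these data known. Named by rule were all 10 IGF genes and, per pathway list, each called gene and the 2 with the largest ratio of the same sign on both arrays; of the cell type lists, called genes. A few genes that this rule picks are not reported here. Alternatives changed the background correction, normalisation, filter, probe and variance model.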

Additional observations from a re-analysis of the deposited data

How the results depend on the processing

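Against 252 called genes, limma called 412 without background correction, 548 with an offset of 16, 486 from the deposited processed signals, 520 after scaling between arrays, 820 with an intensity trend, 156 with the dimmest tested probe, 30 without a filter and 10108 under median centring; it called 304 where both fractions had to be well above background and 314 for single probes. Without moderation it called 0, with 1507 at an unadjusted p under 0.05. The share that was higher was 83.7%, and 70.4%, 72.6%, 80.7%, 61.5%, 60.2%, 92.3%, 100% and 4.79% under the first 8 of these settings, in that order. Of the IGF genes, 1 was called, but 5 under median centring and 0 with both fractions above background, without a filter or without moderation; in the other 7 settings the called gene was Igfbp5. With 1 array left out there is no test: the IGF genes past 2-fold numbered 1 to 3 and all genes 970 to 1847, against 1 and 705 on both arrays. Without array 2, Igfbp3 was at 0.13 and so reversed its sign (-1.29 to 0.13); Igf1r, Igf2r, Igfbp5, Igfbp6 and Igfbp7 kept theirs. The causes were not tested. The ratio of each array already compares the fractions within that array, so no further block was fitted. Signal over background limits Igf1, Igfbp1, Igfbp2, Igfbp4, Igfbp6 and the negative fraction of Igfbp5.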
